A study of Mus musculus with 12 samples.

Results

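Voltage-gated sodium and calcium channel genes were followed in cerebral cortex and hippocampus of mice that lack telomerase reverse transcriptase. Their members were all protein-coding genes of the GRCm38 annotation whose symbol starts with Scn and a digit, Cacna1, Cacna2d, Cacnb or Cacng, and whose mean normalized count was at least 10 in 1 of the tissue tables. Of 40 genes that match by symbol, 37 met this minimum, out of 55487 gene rows in each table. They comprise 18 pore-forming subunits and 19 auxiliary subunits. The remaining 3, Scn4a, Scn11a and Cacng1, had means between 0 and 7.83 and were not analysed further. In cortex all 37 members were tested, and in hippocampus 36, because Scn10a had a mean under 10 there.

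Brain RNA of C57BL/6 mice was sequenced in 12 libraries, 3 for each of 4 groups: cortex and hippocampus labelled mTert WT, and cortex and hippocampus labelled mTert KO (G1). The names of the deposited data also carry the word Homo for the knockout group. What G1 and Homo stand for, the age and sex of the mice and which libraries came from which animal are not given by the labels. The p-values given below therefore measure the spread between libraries, which may be technical. Tert, the deleted gene, had normalized counts of 206, 105 and 241 in the cortex wild-type libraries and 0 in every cortex knockout library. In hippocampus it had 147, 184 and 128 in wild type and 0, 6.31 and 0 in the knockout.

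Voltage-gated sodium channels are built around 1 large alpha subunit, which forms the pore, senses voltage and carries the rising phase of the action potential. Voltage-gated calcium channels have an alpha-1 subunit of similar design, and they couple depolarization to transmitter release, dendritic signalling and gene expression. Auxiliary subunits set how many channels reach the membrane and how they gate: beta subunits of the sodium channel, and beta, alpha-2-delta and gamma subunits of the calcium channel. Most of the gamma genes encode transmembrane AMPA receptor regulatory proteins (TARPs), which traffic and tune glutamate receptors rather than calcium channels.

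The values are read counts per gene that the authors divided by 1 size factor per library, separately for each tissue, so levels are compared here only within a tissue. Library totals came to between 68424934 and 77972013 reads in cortex and between 72401909 and 86639113 in hippocampus. Cortex wild-type library 2 stood apart from the other 5 cortex libraries: across 866 protein-coding genes with over 12 kb of merged exon its median deviation from the gene mean was -0.268 on the log2 scale, against 0.184 and 0.158 in wild-type libraries 1 and 3. The cortex calls of the channel genes are therefore given with and without it. In hippocampus, the summed level of 7 choroid plexus markers ranged from 28031 to 493033 over the wild-type libraries and from 25079 to 39804 over the knockout libraries, and none of the 7 markers was called. Excitatory neuron markers had summed levels of 616001 to 728101 in wild-type and 750408 to 795024 in knockout hippocampus, and 4 of 8 were called higher. Microglia markers had 18855 to 22460 and 27524 to 28744, with 6 of 7 higher. Inhibitory neuron markers had 42973 to 51024 and 58329 to 60589, with 5 of 8 higher. Oligodendrocyte markers had 407742 to 412999 and 443276 to 514195, also with 5 of 8 higher. Over all genes tested in hippocampus, 14.1% were called higher and 15.1% lower. Of 8 astrocyte markers 4 were also higher and 1 lower, while their summed levels were 319574 to 386447 in wild type and 305003 to 321143 in the knockout. Of 8 hippocampal field markers 2 were higher and 2 lower. None of 6 endothelial or 7 mural and smooth muscle markers was called, with median log2 fold changes of -0.3 and -0.33. The part of these markers in the channel results was not tested. In tissue RNA, fewer cells of a type and less RNA per cell cannot be told apart.

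Per kilobase of merged exon, the most abundant pore-forming genes in wild-type cortex were Scn8a with 2348 ± 240 normalized counts per kb (SD, n = 3), Cacna1a with 2043 ± 534 and Scn2a with 1857 ± 292. Across libraries, the values of Scn8a and Cacna1a overlapped, as did those of Cacna1a and Scn2a. Within each library Scn8a was above both of the others, while the order of Cacna1a and Scn2a is not resolved. Scn8a encodes the alpha subunit that dominates at mature axon initial segments and nodes, Cacna1a the P/Q-type channel of presynaptic terminals, and Scn2a an alpha subunit of excitatory axons. In wild-type hippocampus Scn8a led with 2802 ± 275 per kb, above the next gene in every library. Cacna1a (2235 ± 180), Cacna1h (2225 ± 201) and Cacna1e (2005 ± 198), the last of them the R-type channel, followed with overlapping libraries. Cacna1h, a low-voltage-activated T-type channel, held rank 3 there per kb and rank 9 in cortex, where it had 479 ± 134. At the low end, Scn9a, Scn7a, Cacna1f, Cacna1s and Scn10a, which are best known from sensory neurons, glia, retina and skeletal muscle, had 0.686 to 23.6 normalized counts per kb across both tissues in wild type. Among the auxiliary genes, Cacng7 had 6260 ± 514 per kb in cortex and Cacng8 6612 ± 646 in hippocampus, and both encode TARPs.

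The RefSeq promoter table (GRCm38.p6) held entries for 28 of the 37 members, and the 250 bases before each start were read. Members with no entry included Cacna1a, Cacna1g, Cacna1h, Cacna2d4, Cacng4, Scn3a and Scn3b. Shown here are the windows of 2 genes that fell in the knockout hippocampus (Cacna1b and Cacna1d) and of 1 that rose there (Cacng5), all on the minus strand and each 5′ to 3′ in the direction of transcription. Capitals mark CpG dinucleotides. The windows are chr2:24763153-24763402 for Cacna1b, chr14:30353487-30353736 for Cacna1d and chr11:107915056-107915305 for Cacng5. The Cacna1d window lies inside the gene, before an internal start, and the others lie just upstream of the gene.
Cacna1b: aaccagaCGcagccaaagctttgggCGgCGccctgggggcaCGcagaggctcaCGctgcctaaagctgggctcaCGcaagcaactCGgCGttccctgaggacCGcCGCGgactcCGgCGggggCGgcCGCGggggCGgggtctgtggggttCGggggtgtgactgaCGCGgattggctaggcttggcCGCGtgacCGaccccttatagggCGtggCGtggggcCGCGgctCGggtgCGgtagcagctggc
Cacna1d: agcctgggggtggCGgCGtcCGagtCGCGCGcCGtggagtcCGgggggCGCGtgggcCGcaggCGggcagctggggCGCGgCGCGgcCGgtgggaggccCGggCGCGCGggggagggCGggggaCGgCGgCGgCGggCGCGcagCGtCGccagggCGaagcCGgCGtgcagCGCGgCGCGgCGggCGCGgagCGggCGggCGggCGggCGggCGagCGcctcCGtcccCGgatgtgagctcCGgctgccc
Cacng5: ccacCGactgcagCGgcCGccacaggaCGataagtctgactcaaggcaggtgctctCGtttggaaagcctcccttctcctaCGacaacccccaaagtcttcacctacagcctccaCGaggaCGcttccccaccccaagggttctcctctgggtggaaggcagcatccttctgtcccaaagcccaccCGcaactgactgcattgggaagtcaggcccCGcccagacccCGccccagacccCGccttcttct
Of CpG dinucleotides, the Cacna1b window has 29, the Cacna1d window 50 and the Cacng5 window 12. The table holds a further window for Cacna1d, closer to the 5′ end of the gene but also inside it, and for Cacng5. These have 2 CpG each, so the count differs between starts of the same gene. Over the 39 member windows the median was 9 CpG, beside 6 over all 32851 windows in the table. The GC box (GGGCGG, either strand) occurred in 15 of the 39 member windows (38.5%), all 3 printed windows among them, beside 32.7% of all windows. The TATA box (TATAAA, either strand) occurred in 2 of 39, beside 12.4% of all windows. The cyclic AMP response element (TGACGTCA) and the E-box (CACGTG) occurred in 0 of 39, beside 1.55% and 6.02% of all windows, and the left part of the RE1 element (TTCAGCACC) also in 0, beside 0.301%. No searched motif contains another. These are matches of letters in a short window and say nothing of which factor binds.

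In the knockout hippocampus the pore-forming genes were lower and many auxiliary genes were slightly higher. With limma on log2(normalized count + 1) and Benjamini-Hochberg adjusted p below 0.05 over all genes tested, 13 of 17 pore-forming genes fell and 1 rose. Among all 22337 genes tested there, 15.1% were called lower and 14.1% higher. The median log2 fold change of the pore-forming genes was -0.53, beside 0.02 over all genes tested. Of the 19 auxiliary genes 9 rose and 2 fell, with a median of 0.17. The auxiliary values were small: apart from Cacng5, no rise exceeded 0.28 on the log2 scale.

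**Figure D1:**
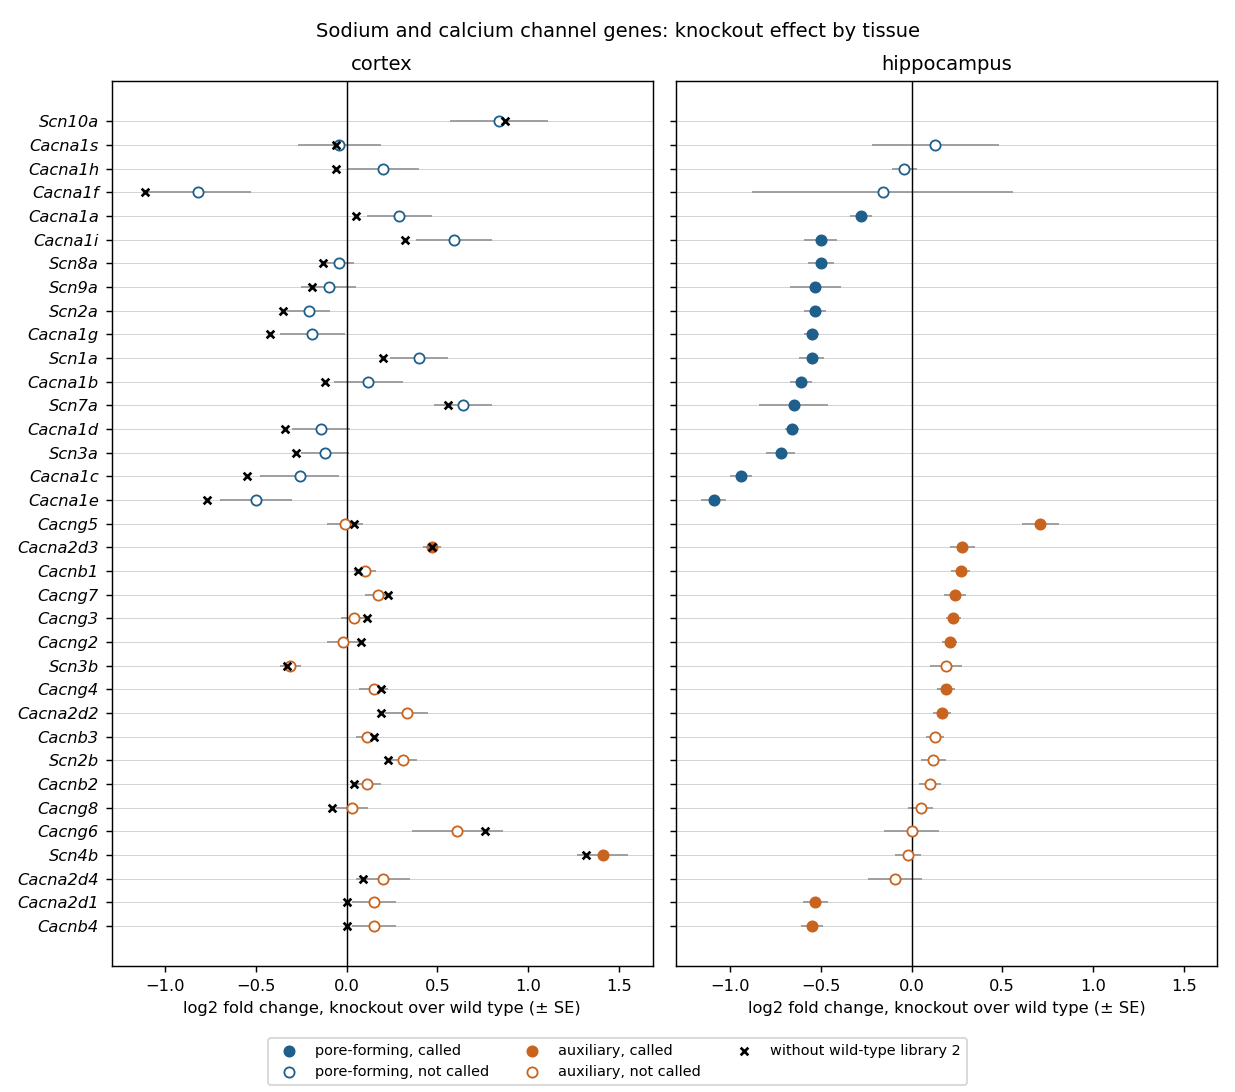
Log2 fold change of knockout over wild type (± SE, 3 against 3 libraries) for the channel genes described in cortex (left) and hippocampus (right), on a shared horizontal axis; filled points passed an adjusted p of 0.05, open points did not, and crosses give the cortex value without wild-type library 2. In hippocampus 13 pore-forming genes lie left of 0 as filled points, while in cortex the filled points are Scn4b and Cacna2d3.

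Among the sodium channel alpha subunits, 6 of the 7 tested in hippocampus fell. Scn2a had normalized counts of 20759, 24029 and 22247 in the wild-type libraries and 14900, 15256 and 16149 in the knockout libraries. The groups did not overlap, and the change was -0.53 ± 0.06 (SE) on the log2 scale (adjusted p = 0.000747). Scn1a, the alpha subunit on which inhibitory interneurons depend most, had 6851, 8086 and 7383 in wild type and 5197, 4809 and 5245 in the knockout. Every knockout library was below every wild-type library, and the change was -0.55 ± 0.07 (adjusted p = 0.00103). Scn3a, which is most abundant in the developing brain, had 4210, 5235 and 4787 in wild type and 2816, 2799 and 3018 in the knockout. It showed the largest fall among the sodium channel genes, -0.72 ± 0.08 (adjusted p = 0.000626), again without overlap. Scn8a had 39941, 48598 and 43993 in wild type and 31062, 31460 and 30894 in the knockout, a change of -0.50 ± 0.07 (adjusted p = 0.00186). The 3 knockout libraries lay close together and below all wild-type libraries. After removal of a length trend, described further on, the Scn8a value was -0.06 (adjusted p = 0.477).

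The minor alpha subunits were measured at low levels. Scn7a, a sodium-sensing relative of these channels found in glia, had 180, 150 and 190 normalized counts in wild-type hippocampus and 140, 96.5 and 96.7 in the knockout (-0.65 ± 0.19, adjusted p = 0.034). Scn9a, known for its role in pain neurons, had 211, 170 and 181 in wild type and 117, 131 and 139 in the knockout (-0.53 ± 0.14, adjusted p = 0.0232). Neither gene's groups overlapped, but the length-adjusted values of both lost the call (Scn7a -0.57, adjusted p = 0.0615; Scn9a -0.19, adjusted p = 0.375), and so did leaving out any 1 of 4 libraries: wild type 1 or 3 and knockout 2 for both, knockout 3 for Scn7a and knockout 1 for Scn9a.

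Scn3a, Scn2a, Scn1a, Scn9a and Scn7a lie side by side on chromosome 2, between positions 65457118 and 66784914 of GRCm38, a stretch of 1.33 Mb. All 5 fell in hippocampus, by 0.53 to 0.72 on the log2 scale. Scn8a on chromosome 15 fell by a similar amount. These genes are close relatives, and how reads matching more than 1 of them were counted is not stated in the labels, so part of the low counts of Scn9a and Scn7a is uncertain.

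The high-voltage-activated calcium channels of neurons fell in hippocampus: all 3 P/Q, N and R-type genes, and the 2 L-type genes with substantial expression. Cacna1e, the R-type channel of dendrites and terminals, had 45375, 55344 and 51041 in wild type and 23329, 23256 and 24544 in the knockout. The knockout level was 46.9% of the wild-type level, the largest change of any member in hippocampus (-1.09 ± 0.07, adjusted p = 6.9e-05). Cacna1c, the main L-type channel of brain and heart, had 13206, 15580 and 14589 in wild type and 7737, 7270 and 7546 in the knockout. Its knockout level was 52.0% of wild type (-0.94 ± 0.06, adjusted p = 7.04e-05). Cacna1d, the L-type channel that opens at lower voltages, had 6841, 7236 and 7276 in wild type and 4470, 4558 and 4463 in the knockout (-0.66 ± 0.04, adjusted p = 4.52e-05). In none of these genes did a knockout library reach a wild-type one. Cacna1b, the presynaptic N-type channel, had 11396, 13565 and 12437 in wild type and 7919, 8385 and 8223 in the knockout (-0.61 ± 0.06, adjusted p = 0.000516), also without overlap. Cacna1a had 23753, 27770 and 25034 in wild type and 21751, 21140 and 19956 in the knockout, a smaller fall of 0.28 on the log2 scale (SE 0.06, adjusted p = 0.0148). The groups did not overlap, but the call of Cacna1a was lost without wild-type library 3, without knockout library 2 or without knockout library 3, and its length-adjusted value was 0.00 (adjusted p = 0.979).

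The T-type channels, which open near rest and support burst firing, did not move as a unit in hippocampus. Cacna1g had 6516, 6765 and 6270 in wild type and 4518, 4483 and 4321 in the knockout (-0.55 ± 0.04, adjusted p = 0.000126). Cacna1i had 6364, 7774 and 6874 in wild type and 5420, 4542 and 4921 in the knockout (-0.50 ± 0.09, adjusted p = 0.00547). Both were lower in all 3 knockout libraries than in any wild-type library. Cacna1h had 19868, 23775 and 21529 in wild type and 20333, 22368 and 20747 in the knockout. Those groups overlapped, and the value of -0.04 ± 0.07 was not called (adjusted p = 0.742). The retinal and muscle L-type genes Cacna1f and Cacna1s had group means between 18.3 and 30.4 normalized counts in hippocampus, overlapped between groups and were not called.

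The falling auxiliary genes were Cacna2d1 and Cacnb4. Cacna2d1 encodes an alpha-2-delta subunit that is a target of gabapentin. It had 11488, 13157 and 12840 in wild-type hippocampus and 8371, 8199 and 9357 in the knockout, without overlap (-0.53 ± 0.07, adjusted p = 0.00141). Cacnb4, a cytoplasmic beta subunit mutated in the lethargic mouse, had 7673, 8288 and 8266 in wild type and 5342, 5185 and 6025 in the knockout (-0.55 ± 0.06, adjusted p = 0.000804). Its knockout libraries were all below its wild-type libraries. None of the other calcium channel beta genes was called lower. Cacnb1 had 11334, 12650 and 11655 in wild type and 14173, 14518 and 14318 in the knockout, and rose by 0.27 ± 0.05 (adjusted p = 0.00537) without overlap. Cacnb3 had 15665, 17238 and 16661 in wild type and 18572, 18088 and 17635 in the knockout (0.13 ± 0.05, adjusted p = 0.0699). Cacnb2 had 4991, 5824 and 5376 in wild type and 5726, 5752 and 5836 in the knockout (0.10 ± 0.06, adjusted p = 0.235). Neither of these last genes was called, and the Cacnb2 groups overlapped.

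Of the other alpha-2-delta genes, Cacna2d3 and Cacna2d2 rose in hippocampus. Cacna2d3 had 6586, 7972 and 7344 in wild type and 8445, 9247 and 8864 in the knockout (0.28 ± 0.07, adjusted p = 0.0228). Cacna2d2 had 2318, 2392 and 2252 in wild type and 2698, 2625 and 2503 in the knockout (0.17 ± 0.05, adjusted p = 0.033). Both lacked overlap between groups. The Cacna2d3 call was lost without wild-type library 3, knockout library 2 or knockout library 3, and the Cacna2d2 call without wild-type library 1 or 3 or knockout library 1 or 2. Cacna2d4, known from photoreceptors, was low at 139 ± 11.4 in wild type and 131 ± 19.6 in the knockout (SD, n = 3) and not called.

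Of the 7 gamma genes, 5 rose in hippocampus and 0 fell, and all 5 were TARPs. Of all genes tested there, 14.1% were called higher. The 6 TARP genes have 2.35 to 5.51 kb of merged exon. Of protein-coding genes with 2 to 4 kb 23.6% were called higher, and of those with 4 to 6 kb 21.8%. After removal of the length trend described further on, 3 of the 6 TARP genes were called higher, beside 13.1% and 16.6% of these classes. Cacng5 had 949, 1280 and 1100 in wild type and 1760, 1878 and 1762 in the knockout, the largest rise among the auxiliary genes (0.71 ± 0.10, adjusted p = 0.00231). All knockout libraries lay above all wild-type libraries. Cacng2, which encodes stargazin, had 6817, 7258 and 7118 in wild type and 8247, 8079 and 8123 in the knockout (0.21 ± 0.04, adjusted p = 0.00681). Cacng3 had 4582, 4781 and 4548 in wild type and 5509, 5542 and 5251 in the knockout (0.23 ± 0.04, adjusted p = 0.00608). These genes too were separated in every library. Cacng4 (2239, 2432 and 2313 against 2625, 2773 and 2586) rose by 0.19 ± 0.05 (adjusted p = 0.0244). Cacng7 (10467, 12092 and 11440 against 13793, 13551 and 12734) rose by 0.24 ± 0.06 (adjusted p = 0.0217). Without overlap in either, both were nevertheless uncalled without wild-type library 3, knockout library 1 or knockout library 2, and Cacng4 also without wild-type library 1. The most abundant TARP gene per kb in hippocampus, Cacng8, had 15505 ± 1516 in wild type and 15996 ± 364 in the knockout (SD, n = 3; 0.05 ± 0.07, adjusted p = 0.635). Cacng6, which is not a TARP gene, had 130 ± 7.01 and 131 ± 19.0 and was not called.

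Sodium channel beta subunits, which are adhesion proteins as well as channel modulators, are described here by library for hippocampus. Scn2b had 20436, 24685 and 22259 against 24029, 24562 and 24313 (0.12 ± 0.07, adjusted p = 0.224). Scn3b had 21459, 28166 and 24587 against 27771, 29027 and 27483 (0.19 ± 0.09, adjusted p = 0.153). The groups of both overlapped. Scn4b had 2942, 2468 and 2696 against 2711, 2631 and 2624 (-0.02 ± 0.07, adjusted p = 0.837), with the knockout libraries inside the wild-type range.

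**Figure D2:**
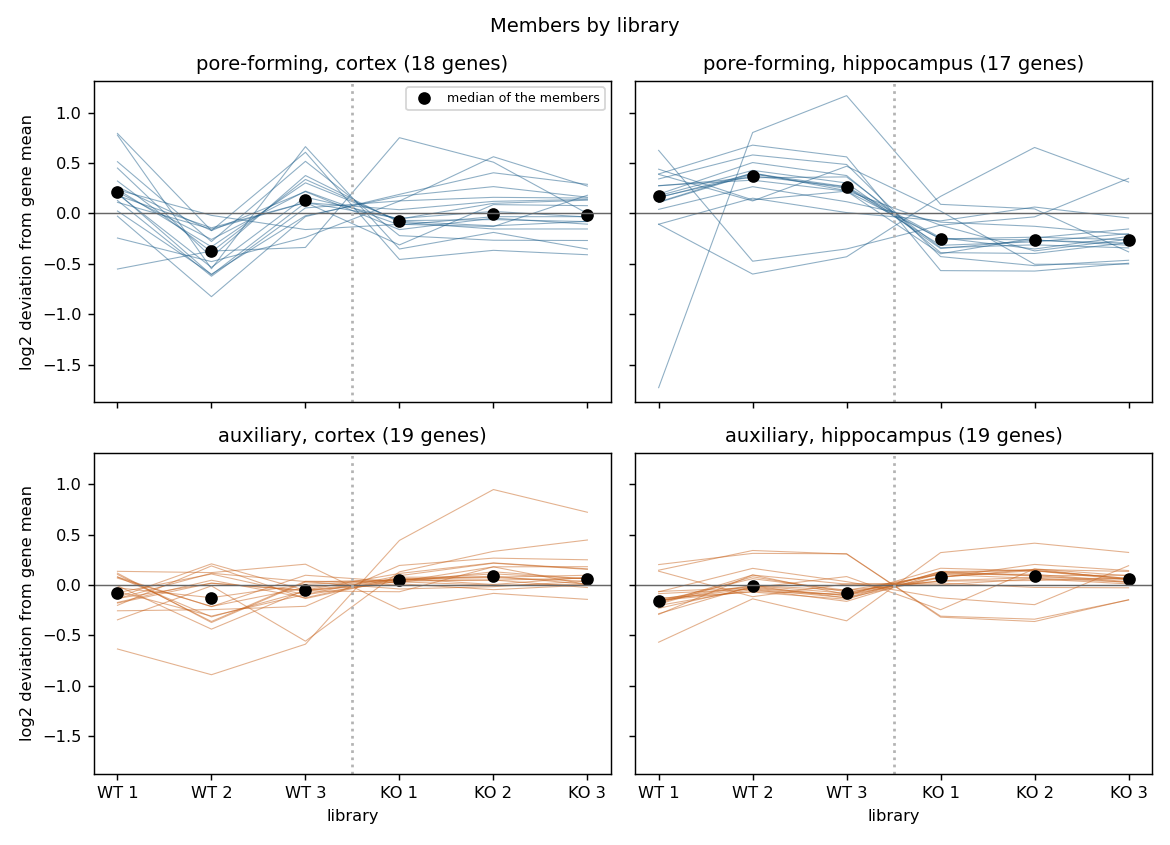
Deviation of each tested channel gene from its own mean over the 6 libraries of a tissue (log2 scale), by library, with pore-forming genes above, auxiliary genes below, cortex left and hippocampus right; thin lines are genes and black points their median. In hippocampus the pore-forming medians are 0.177 to 0.373 in wild type and -0.266 to -0.251 in the knockout, and in cortex wild-type library 2 sits at -0.377.

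By library, the median deviation of the pore-forming genes in hippocampus was 0.177, 0.373 and 0.262 in wild type and -0.251, -0.266 and -0.261 in the knockout. All 3 knockout libraries were thus nearly equal, and the wild-type libraries were more spread. The auxiliary medians were -0.154, -0.009 and -0.081 in wild type and 0.078, 0.094 and 0.060 in the knockout. Wild-type library 1 was the lowest wild-type library for 16 of 19 auxiliary genes, and wild-type library 2 the highest for 17 of 19.

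The fall of the pore-forming genes ran alongside the length of the transcripts. Over all protein-coding genes in hippocampus, 5.47% of those with up to 2 kb of merged exon were called lower, 41.0% of those with 8 to 12 kb and 71.0% of those with over 12 kb, where the median log2 fold change was -0.46. Every pore-forming member had at least 6.55 kb, and Cacna1e and Cacna1c, with the largest falls, were the longest at 25.2 and 21.2 kb. Across the 36 members tested in hippocampus, Spearman's rho between length and log2 fold change was -0.71, and across the 37 in cortex -0.31. These are descriptions over genes measured in the same libraries. Of all protein-coding genes there, 23.6% of those with 2 to 4 kb, 21.8% of those with 4 to 6 kb and 13.2% of those with 6 to 8 kb were called higher. Among the auxiliary genes, the 14 with up to 8 kb had 8 rises and 0 falls, and the 5 longer ones had 1 rise and 2 falls, Cacna2d1 (12.4 kb) and Cacnb4 (8.96 kb).

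**Figure D3:**
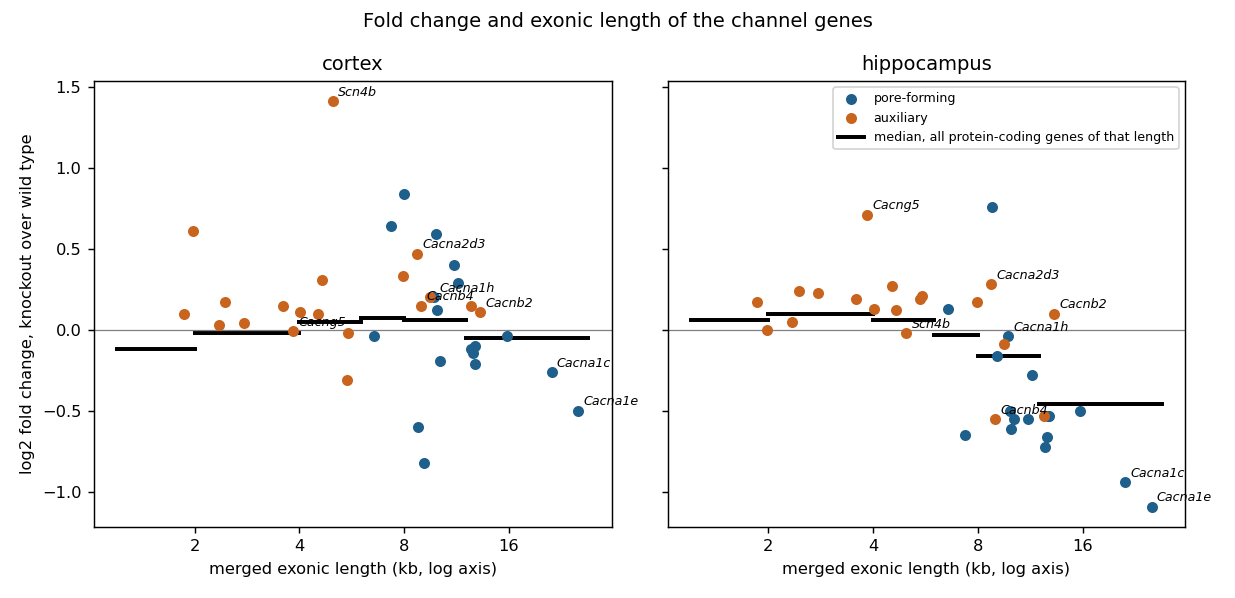
Log2 fold change of each channel gene against its merged exonic length (log axis, kb), in cortex (left) and hippocampus (right), with pore-forming genes in blue, auxiliary genes in orange and black bars for the median of all protein-coding genes in each length class. In hippocampus the bar falls to -0.46 over 12 kb, and Cacna1e and Cacna1c lie below it.

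A trend along exonic length was then subtracted from each library and the fit repeated. In hippocampus 9 of 17 pore-forming genes still fell and 1 rose, with a median of -0.27. Of all genes, 12.1% were then called lower and 13.5% higher. Long genes were called more often in both directions. Of protein-coding genes with 8 to 12 kb, 23.2% were lower and 29.8% higher. Of those with over 12 kb, 31.7% were lower and 28.8% higher. Cacna1e kept -0.42 (adjusted p = 0.000823), Scn3a -0.39 (adjusted p = 0.00446), Cacna1b -0.39 (adjusted p = 0.00214), Cacna1c -0.36 (adjusted p = 0.0012), Cacna1d -0.33 (adjusted p = 0.000756) and Cacna1g -0.33 (adjusted p = 0.00157). Scn1a (-0.27), Cacna1i (-0.28) and Scn2a (-0.19) also kept their calls. So the size of these falls shrank by over 1.5 times with length removed, while those of Scn8a, Scn9a, Scn7a and Cacna1a were no longer called. The auxiliary genes had 7 rises and 2 falls, with a median of 0.14: Cacna2d1 (-0.21) and Cacnb4 (-0.39) remained lower, Cacng4 and Cacng7 lost their calls, and Cacnb2, 13.2 kb long, gained one at 0.46 (adjusted p = 0.000502).

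In cortex the same test called 0 of 18 pore-forming genes and 2 of 19 auxiliary genes, Scn4b and Cacna2d3, both higher. Of all 21945 genes tested in cortex, 1.28% were called higher and 0.661% lower. With limma, 6 of the 18 pore-forming genes had an unadjusted p under 0.05, as had 18.4% of all genes, and no other tool was run in cortex. The medians were -0.07 for the pore-forming and 0.15 for the auxiliary genes, beside -0.01 over all genes tested, and -0.16 and 0.11 without wild-type library 2.

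Scn4b encodes a sodium channel beta subunit that supports resurgent current and is abundant in striatal projection neurons. It had 7720, 6467 and 7979 normalized counts in the cortex wild-type libraries and 16302, 23138 and 19788 in the knockout libraries. Every knockout library was above every wild-type library, and the level was 267% of wild type (1.41 ± 0.14, adjusted p = 0.00723). Without wild-type library 2 it was 1.32 (adjusted p = 0.000167), and without knockout library 3 it was 1.40 and no longer called. Scn4b lies on chromosome 9 at 45138395 to 45154152 (plus strand, GRCm38), directly after Scn2b at 45117782 to 45130070. Scn2b had 21503, 18139 and 21065 in wild type and 23954, 26107 and 25013 in the knockout (0.31 ± 0.08, adjusted p = 0.11), separated but not called. Markers of striatal neurons moved with Scn4b: 11 of 12 listed genes were called higher in cortex and 0 lower, with a median of 1.57, and all 12 were higher without wild-type library 2. Their summed level was 28381 to 32232 in wild-type and 60111 to 90981 in knockout cortex, and no marker was at 0. In hippocampus 2 of the 12 were higher and 2 lower, with sums of 29969 to 31957 in wild type and 26028 to 27327 in the knockout. The part of striatal tissue in the Scn4b result was not tested.

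Cacna2d3 was the most even of the members across cortex wild type, with 5997, 6045 and 6185, against 8194, 8619 and 8519 in the knockout. It rose by 0.47 ± 0.05 (adjusted p = 0.0112), without overlap and with 0.47 again without wild-type library 2 (adjusted p = 5.04e-05). The call was lost when any 1 of the other 5 libraries was left out. It was called higher in both tissues. The sodium channel beta gene Scn3b had 5607, 5558 and 5889 in wild-type cortex and 4319, 4817 and 4622 in the knockout (-0.31, adjusted p = 0.0638). Its groups did not overlap.

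Cortex wild-type library 2 carried the lowest value of all 6 libraries for 14 of 18 pore-forming genes and for 9 of 19 auxiliary genes. How often it was lowest over all genes was not counted. For 11 pore-forming genes it lay under 70% of the mean of wild-type libraries 1 and 3. Its median deviation over the pore-forming genes was -0.377 on the log2 scale, beside 0.208 and 0.136 in the other wild-type libraries and -0.074 to -0.006 in the knockout. Long genes in general were low in this library. Its median deviation was 0.286 over protein-coding genes with up to 2 kb, -0.232 with 8 to 12 kb and -0.268 with over 12 kb. Cacna1e shows the pattern, with 25866, 14929 and 25934 in wild type and 15548, 15062 and 15035 in the knockout. Wild-type library 2 was level with the knockout there, and the value of -0.50 ± 0.20 was not called (adjusted p = 0.249).

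Without that library, 3 pore-forming genes rose and 9 fell in cortex, and 8 auxiliary genes rose and 1 fell. Over all genes, 11.0% were then called higher and 10.4% lower. The shares depended on exonic length here too. Of protein-coding genes with 8 to 12 kb, 15.7% were higher and 21.6% lower. Of those with over 12 kb, 8.44% were higher and 51.2% lower. The values that follow rest on 2 wild-type libraries. Cacna1e had -0.77 (adjusted p = 1.94e-06), with a knockout level of 58.7% of wild-type libraries 1 and 3. Cacna1c (8724, 4728 and 8287 against 6005, 5735 and 5736) had -0.55, Cacna1g (14024, 8611 and 14178 against 10628, 10302 and 10618) had -0.42 and Cacna1d (6057, 4081 and 6340 against 4887, 4922 and 4855) had -0.34. These channel genes fell in hippocampus too. Scn2a (26201, 19381 and 25344 against 19513, 21119 and 20258) had -0.35, Scn3a (2481, 1790 and 2497 against 1978, 2094 and 2094) had -0.28 and Scn8a (39240, 32642 and 39171 against 35119, 36863 and 35473) had -0.13. With all libraries, the values of these 7 genes lay between -0.50 and -0.04 and none was called. Among the low genes, Cacna1f had -1.11. The adjusted p-values of these 8 falls were 1.94e-06 to 0.0114.

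Scn1a and Cacna1i moved the opposite way in cortex. Scn1a had 13466, 8717 and 13037 in wild type and 14914, 15929 and 14807 in the knockout, without overlap, at 0.40 with all libraries (adjusted p = 0.245) and 0.20 without wild-type library 2 (adjusted p = 0.00607). Cacna1i had 13739, 7894 and 13699 in wild type and 15965, 18523 and 17107 in the knockout, at 0.59 (adjusted p = 0.203) and 0.32 (adjusted p = 0.00378). Scn7a, at 0.56, was the remaining pore-forming rise without that library. The presynaptic genes Cacna1a (27504, 16329 and 26131 against 27430, 28108 and 27959) and Cacna1b (13414, 8088 and 13122 against 11282, 12569 and 12844) were not called either way, at 0.05 and -0.12 without that library. Cacna1h (5607, 3190 and 5244 against 4996, 5291 and 5363) was not called at -0.06.

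The auxiliary genes of cortex that rose without wild-type library 2 included Scn4b, Cacna2d3, Scn2b (0.23), Cacng7 (0.23), Cacna2d2 (0.19), Cacnb3 (0.15) and Cacng3 (0.11), and Scn3b fell by 0.33 on the log2 scale, with adjusted p-values of 5.04e-05 to 0.0468. The calcium channel beta genes had small positive values with all libraries: Cacnb1 (10905, 10191 and 11171 against 11532, 11817 and 11173), Cacnb2 (3434, 2825 and 3216 against 3410, 3444 and 3362), Cacnb3 (18837, 20909 and 19933 against 21426, 21365 and 21670) and Cacnb4 (18034, 13045 and 17208 against 17090, 18368 and 17477) lay between 0.10 and 0.15, and none was called. The groups of Cacnb1 and Cacnb3 did not overlap. Cacng5, which rose in hippocampus, had 380, 453 and 428 in cortex wild type and 406, 413 and 429 in the knockout. Setting the cortex calls without library 2 beside the hippocampus calls, 5 members rose in both tissues and 7 fell in both. Of the 21255 genes tested in both, 5.47% rose in both and 6.98% fell in both. The 7 members that fell in both have 10.1 kb of merged exon or more. Of protein-coding genes with 8 to 12 kb, 21.6% fell in cortex without library 2 and 41% in hippocampus. Of those with over 12 kb, 51.2% and 71% did. The share of long genes that fell in both tissues was not counted. The 3 genes Scn1a, Scn7a and Cacna1i rose in cortex and fell in hippocampus, as did 0.522% of all genes. A single member crossed the other way, beside 0.433% of all genes.

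The difference of the knockout effect between tissues was tested directly with an interaction term over all 12 libraries. It passed for 8 of 36 members, where 3.02% of 21282 genes passed. The shares depended on exonic length. Of protein-coding genes with 8 to 12 kb, 6.64% had a lower effect in hippocampus and 0.218% a higher one, with a median of -0.22. Of those with over 12 kb, 6.95% were lower and 0% higher, with a median of -0.41. Scn1a, Cacna1i and Cacnb4 belong to the first of these classes and Cacna2d1 to the second. Scn4b (-1.43), Scn7a (-1.29), Cacna1i (-1.09), Scn1a (-0.95), Cacnb4 (-0.70) and Cacna2d1 (-0.68) had a lower effect in hippocampus than in cortex, while Cacng5 (0.72) and Scn3b (0.50) had a higher one, with adjusted p-values of 0.00266 to 0.0445. The largest difference thus belonged to Scn4b, and Cacnb4 and Cacna2d1, which fell in hippocampus, had positive uncalled values of 0.15 each in cortex. The remaining 28 did not pass. Among them was Cacna1e, at -0.59 ± 0.24 (adjusted p = 0.177). The count went to 16 without cortex wild-type library 2, to 5 without hippocampus wild-type library 1, and to 1 or 2 without any of the 3 cortex knockout libraries, hippocampus wild-type library 3 or any of the 3 hippocampus knockout libraries. It was also 1 with the replicate number as a block.

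**Figure D4:**
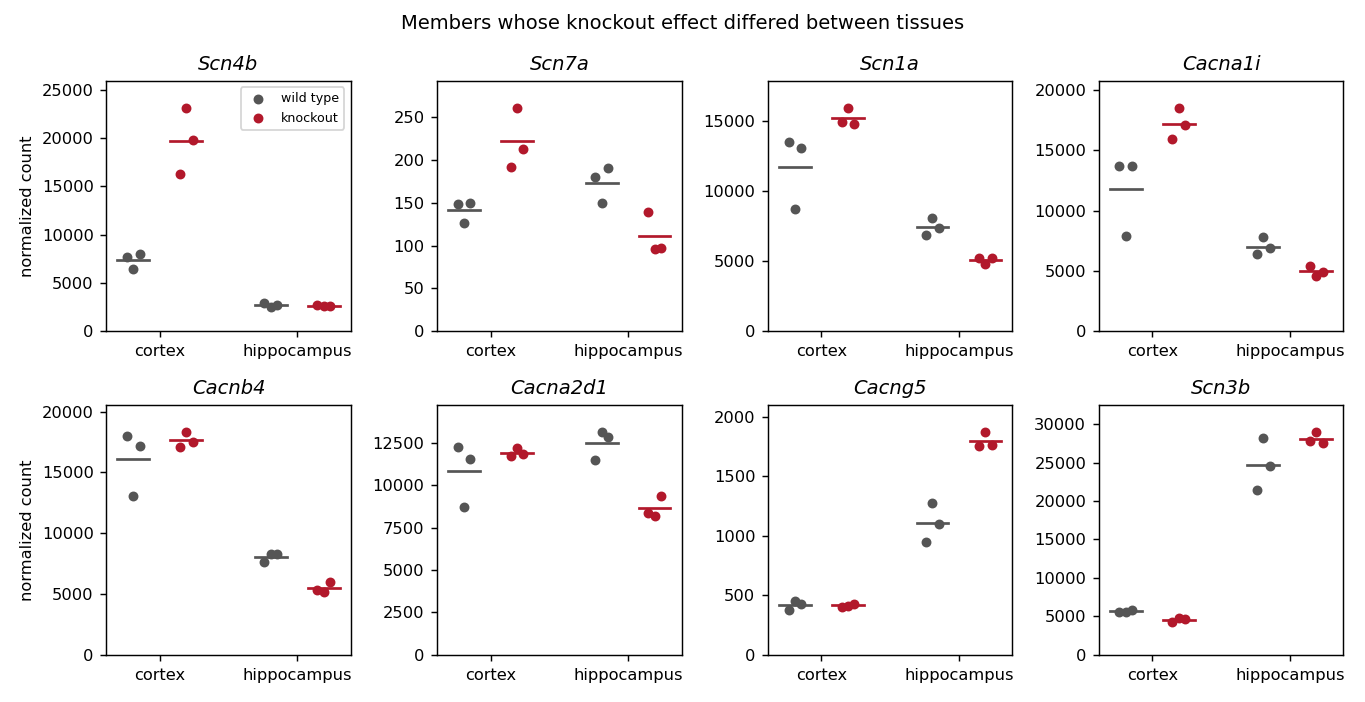
Normalized counts (vertical axis from 0, scaled separately for each tissue by the authors) in each library for the 8 members whose knockout effect differed between tissues, with wild type in grey, knockout in red and bars for the mean of 3. Scn4b sits at 16302 to 23138 in knockout cortex against 6467 to 7979 in wild type, while its hippocampus groups overlap.

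The make-up of the brain sodium channel pool was read as each gene's share of the summed normalized counts per kb of Scn1a, Scn2a, Scn3a and Scn8a. Shares within a library do not depend on its size factor. In cortex, the Scn1a share ranged from 17.3% in library 2 to 20.3% in library 1 of wild type and was 25.5%, 25.5% and 24.9% in the knockout. The groups were separated, with means of 19.2% ± 1.65 and 25.3% ± 0.356 (SD, n = 3), a difference of 6.09 percentage points. The Scn2a share was 34.6%, 33.7% and 34.1% in wild type and 29.2%, 29.7% and 29.8% in the knockout, a difference of -4.56 percentage points without overlap. This includes library 2, whose share was close to those of the other wild-type libraries. In a 2-sided exact permutation test both gave p = 0.1, the smallest that 3 against 3 libraries allow, so neither can pass 0.05 (Benjamini-Hochberg adjusted over 8 tests, 0.2). In hippocampus the Scn1a share was 11.9% ± 0.0875 and 11.8% ± 0.501 and the Scn2a share 31.3% ± 0.505 and 31.3% ± 0.837. Neither differed beyond the spread (exact permutation p = 0.9 for each). The Scn3a share was 6.78% ± 0.156 in wild-type and 5.96% ± 0.165 in knockout hippocampus, with no overlap (exact permutation p = 0.1), and 3.32% ± 0.126 and 3.06% ± 0.0793 in cortex, also separated. Scn8a held 49.5% to 50.4% of wild-type and 49.7% to 51.8% of knockout hippocampus, and means of 43.4% ± 2.15 and 42.1% ± 0.291 in cortex, with overlapping groups.

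**Figure D5:**
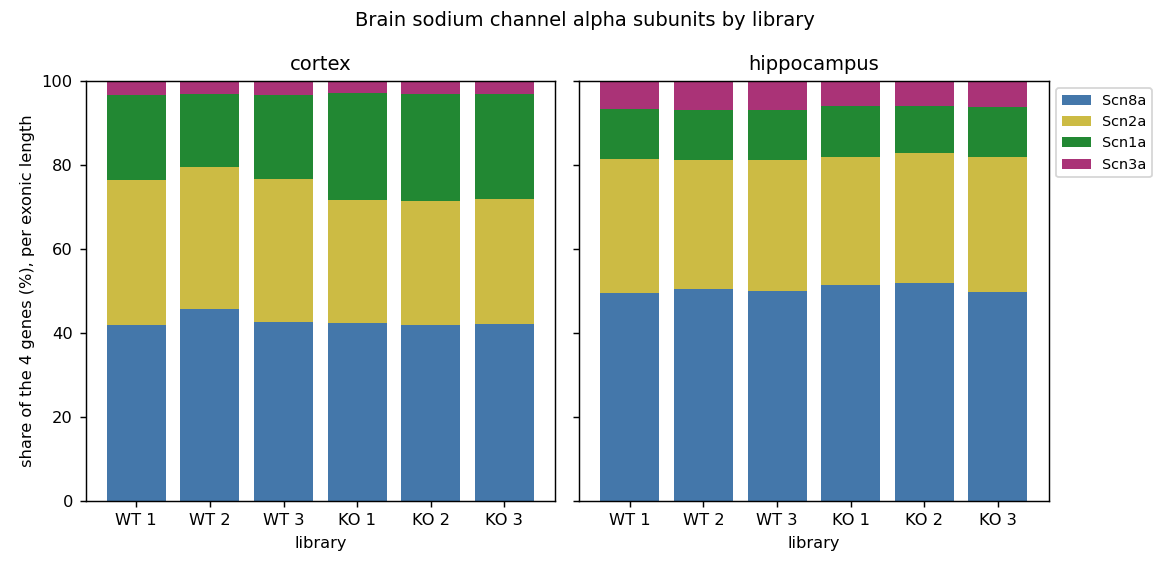
Share of Scn8a, Scn2a, Scn1a and Scn3a in the summed normalized counts per kb of these 4 sodium channel genes (vertical axis, %), stacked for each library of cortex (left) and hippocampus (right). The Scn1a part is 24.9% to 25.5% in knockout cortex and 17.3% to 20.3% in wild-type cortex, with no such step in hippocampus.

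A list of 34 genes whose products anchor, modulate or work beside these channels was read from the same fits. In cortex 1 rose and 0 fell (1.28% and 0.661% of all genes): Rem2, a small GTPase that inhibits calcium channels, rose from 194 to 433 normalized counts (1.14 ± 0.19, adjusted p = 0.0424). Next by p-value were Cabp1, a calcium-binding channel modulator (0.28, adjusted p = 0.0601), and Stac (-1.58, adjusted p = 0.062), neither called. Without wild-type library 2, 12 of the 34 rose and 8 fell in cortex, where 11.0% and 10.4% of all genes did. Rem2 (1.26) and Cabp1 (0.30) then rose and Stac (-1.62) fell, with adjusted p-values of 0.000241 to 0.0219. Unc80 (-0.80), Unc79 (-0.33) and Ank2 (-0.36) fell there too, with adjusted p-values of 1.8e-06 to 0.000858. In hippocampus 6 of the 34 rose and 12 fell, beside 14.1% and 15.1% of all genes, with a median of -0.09. The smallest p-values belonged to Unc80 (28200 to 13200, -1.09 ± 0.08, adjusted p = 8.1e-05) and Unc79 (8390 to 5000, -0.74 ± 0.08, adjusted p = 0.000626), which belong to the sodium leak channel complex, and to Ank2, a membrane-skeleton adaptor (63900 to 39100, -0.70 ± 0.07, adjusted p = 0.000285). Their merged exons measure 14.4, 14.3 and 35.0 kb. With the length trend removed, 11 of the 34 were higher and 6 lower, so the split between rises and falls of this list turned.

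Exons of 10 members overlap exons of a gene on the other strand, and no source states whether counting used strand. For Cacna1d and the gene Chdh the overlap is 589 bases, and Chdh had 991 normalized counts in wild-type and 742 in knockout hippocampus beside 7118 and 4497 for Cacna1d. For Cacnb4 it is 1433 bases of A430018G15Rik, which had 27.6 and 19.7. The others were Cacna1a, Cacna1h, Cacna1s, Cacna2d2, Cacnb1, Cacnb2, Cacng2 and Scn9a.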

How the data were processed

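The authors deposited, for each tissue, a table of normalized counts per Ensembl gene, treated here as a signal: gene counts scaled by 1 size factor for each library. STAR, HTSeq, DESeq2 and GRCm38 are named per the submitters' processing notes. Versions, annotation, strand setting and treatment of ambiguous reads are not named in any source used here. Each column holds whole multiples of its smallest value (100% within 0.001), which gives totals of 68424934 to 86639113 reads.

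Symbols, positions and merged exonic lengths came from GENCODE M21 (GRCm38), which matched 55227 of 55487 gene identifiers. Genes with a mean of at least 10 were tested per tissue with limma 3.58.1 (R 4.3.3) on log2(normalized count + 1), with the prior variance following expression, and adjusted by Benjamini-Hochberg. Such fold changes understate those of low genes. Length was removed by a lowess curve (span 0.3) per library. Scripts were tested on simulated data.

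The members, the partner and marker lists and the tests were chosen with earlier results of these data known. Values in every library are given for called members (the 30 with the smallest p at most), the main brain alpha subunits and the sodium and calcium channel beta genes, and the 3 partner genes with the smallest p per tissue are named. Alternatives were other pseudocounts, filters, normalization, the replicate block, a fit over 12 libraries, edgeR 4.0.16 and DESeq2 1.42.0, and leaving out each library. Some members and sequences are not reported here by name, although all members stay in the counts.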

Additional observations from a re-analysis of the deposited data

Results flagged for a closer look

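For 8 of 36 channel genes the knockout effect differed between hippocampus and cortex by the interaction test, given as hippocampus minus cortex on the log2 scale. Of all genes 3.02% passed, and shares for long genes are given above. Scn4b had -1.43, with 267% of the wild-type level in cortex and 98.3% in hippocampus. Scn7a had -1.29 and Scn1a -0.95, and each was higher in every knockout library of cortex and lower in every knockout library of hippocampus. Cacna1i had -1.09 and showed the same crossing. Cacnb4 had -0.70 and Cacna2d1 -0.68, both lower in the knockout hippocampus and with overlapping groups in cortex. Cacng5 had 0.72, with 162% of the wild-type level in hippocampus and 99.0% in cortex. Scn3b had 0.50, with 114% in hippocampus and 80.7% in cortex.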

How the results depend on the processing

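Of the hippocampus values of single members under the alternatives, 568 kept their direction and side of the threshold or were uncalled throughout, 66 lost a call, 9 gained one and 3 changed sign. In cortex the numbers were 550, 9, 29 and 0, and for the difference between tissues 662, 73, 17 and 1. Uncalled values changed sign 22, 19 and 31 times. Cacna1c, Cacna1d, Cacna1b, Cacna1e, Scn1a, Scn2a, Scn3a, Cacna1g, Cacna2d1, Cacnb4, Cacnb1, Cacng3 and Cacng5 were called in hippocampus under all 18 alternatives, edgeR and DESeq2 on recovered reads included. Removing the length trend left Cacna1a in hippocampus at 0.00 and uncalled (adjusted p = 0.979, and 0.00 and 0.975 with the replicate block). With the replicate block it took Cacna1h in hippocampus from an uncalled -0.04 to 0.17 (adjusted p = 0.0208). The tissue difference of Cacnb2 went from an uncalled -0.01 to 0.33 (adjusted p = 0.0286). Removing the trend left a pore-forming median of -0.27 in hippocampus, also -0.27 with the block. In cortex it called 3 pore-forming members (1 higher, 2 lower) and 5 auxiliary members (4 higher, 1 lower). Of all genes tested in cortex, 3.57% were then called higher and 2.28% lower. Called auxiliary members in cortex numbered 1 with no trend of the prior variance, 4 in a fit over all 12 libraries and 0 with the replicate block; quantile normalization gave their median as 0.08. Called auxiliary members in hippocampus numbered 6 and 7 with no trend and in the fit over 12 libraries. The count of members that differed between tissues was 2 with no trend, 4 with no filter on low values and 1 with the replicate block.

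Leaving out 1 library gave 0 to 12 pore-forming and 0 to 9 auxiliary calls in cortex, both highest without wild-type library 2, with pore-forming medians of -0.16 to -0.01 and auxiliary medians of 0.11 to 0.16. In hippocampus it gave 10 to 14 pore-forming calls, with medians of -0.58 to -0.49. Auxiliary calls there numbered 6 to 15, with medians of 0.09 to 0.19. The tissue difference was called for 1 to 16 members. In cortex the Scn1a share changed by 5.15 to 6.64 points and the Scn2a share by -4.77 to -4.33 points. The Scn2a share in cortex changed by -3.96 points when not divided by length. In hippocampus the Scn1a share changed by -0.339 to 0.14 points and the Scn2a share by -0.51 to 0.316 points. Same-numbered wild-type and knockout libraries of a tissue did not deviate together (correlations of -0.06 to 0.09), nor did same-numbered cortex and hippocampus libraries of a genotype (-0.09 to 0.06), so the numbers are not treated as pairs. Count tests in cortex and for the tissue difference were not run, because the size factors of cortex wild-type libraries 1 and 2 lay close to 1. Their smallest values were 0.991 and 1, and their columns also held whole multiples of these. The cause of each change was not tested. The scarce member Cacna1f in wild-type hippocampus had 27.9 ± 20.4 normalized counts at similar library totals.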
